A study of Mus musculus with 22 samples.

Results

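The genes for the proteins of the cytosolic ribosome were described in mammary tissue that held newly engrafted EO771 cells. The pattern for symbols of the Rpl, Rplp, Rps and Rpsa families matched 83 symbols, and the 79 that were above 1 CPM (reads of a gene per 1e6 reads of its library) in at least 5 of 22 mice are the genes described here, out of 15138 genes that passed the same filter and 52526 symbols in all. Of the 79, 47 belong to the large subunit and 32 to the small subunit. The 4 symbols that did not pass were Rpl10l (at 1 CPM, the lowest value the authors' files hold, in every mouse), Rpl24 (above it in 1 mouse), Rpl6l (2 mice) and Rpl32l (4 mice). Rpl24 encodes a protein of every ribosome, and how the authors' counting treated its reads is not given in the sources used here, so the listed value may not be its level.

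All 22 animals were female C57BL/6J mice aged 7 to 8 weeks, and in every one the left 4th mammary fat pad received 100000 cells of EO771, a mammary cancer line of the same strain that had been made to express firefly luciferase. Wheel mice had lived with a running wheel for 2 weeks, and Control mice with the hub of the apparatus alone. Each mouse was given PBS liposomes or clodronate liposomes by vein, 24 hours before and again at engraftment, clodronate being a drug that kills the phagocytes that ingest it. Tissue was taken 24 hours after engraftment from 6 Control and 6 Wheel mice with PBS liposomes and from 5 Control and 5 Wheel mice with clodronate liposomes. No group lacked the engrafted cells, and reads of the mouse EO771 cells and of the host tissue carry the same gene names.

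The cytosolic ribosome joins a small subunit, which reads the messenger RNA, to a large subunit, which forms the peptide bonds, and each protein is needed in about equal number. Many of these messenger RNAs begin with a run of pyrimidines (C and U) at the first base, the 5′ terminal oligopyrimidine tract, through which growth signalling by mTOR adjusts their translation. In the mammary fat pad, adipocytes, epithelium, vessels, immune cells and the inguinal lymph node all carry ribosomes and can add to the signal. In bulk tissue, more cells of a type and more RNA per cell cannot be told apart.

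Of the sequence features searched, the pyrimidine run stood in the most members. Of 58 members with an entry among the RefSeq promoters of GRCm38.p6, 51 (87.9%) held at least 8 consecutive C or T on the sense strand within 50 bases of the annotated start, against 39.3% of all 27025 genes with an entry. On the antisense strand the share was 22.4% of members against 41.1% of all genes. The letters CGGAAG, searched on both strands over 300 bases, stood in 40 of the 58 (69.0%) and in 18.8% of all genes, and on the opposite strand they read CTTCCG, whose first letters can be part of a pyrimidine run. CTTTCC, itself a pyrimidine run, stood on either strand in 30 of the 58 (51.7%) and in 29.3% of all genes, and AAGATGG in 15.5% and 7.28%. TATAAA on the sense strand stood in 8.62% of members and in 9.77% of all genes. The windows below run from 40 bases before to 20 bases from the annotated start, with the longest pyrimidine run in capitals; the first 4 members have a run of 8 or more and the last 3 do not.

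Rps27 (chr3:90213629-90213688, minus strand): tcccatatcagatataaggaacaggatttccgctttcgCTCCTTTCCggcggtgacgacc
Rps6 (chr4:86857348-86857407, minus strand): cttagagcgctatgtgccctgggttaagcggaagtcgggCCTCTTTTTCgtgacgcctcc
Rpl4 (chr9:64173347-64173406, plus strand): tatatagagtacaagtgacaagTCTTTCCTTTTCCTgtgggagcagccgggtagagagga
Rpl15 (chr14:18270967-18271026, minus strand): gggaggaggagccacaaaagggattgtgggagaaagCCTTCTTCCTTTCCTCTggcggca
Rps28 (chr17:33824543-33824602, minus strand): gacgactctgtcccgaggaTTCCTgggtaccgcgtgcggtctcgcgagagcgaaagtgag
Rps4x (chrX:102189372-102189431, minus strand): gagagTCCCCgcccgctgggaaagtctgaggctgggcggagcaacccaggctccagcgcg
Rpl3l (chr17:24727786-24727845, plus strand): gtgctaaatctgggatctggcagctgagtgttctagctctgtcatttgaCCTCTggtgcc

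Rps27, Rps6, Rpl4 and Rpl15 were chosen because the results below turn on them or, for Rpl15, because its run of 17 was the longest of the windows written out. Rps28, Rps4x and the muscle paralog Rpl3l were chosen as members whose longest run in this window was 5. A run in this window is a match of letters, and the transcribed start used in this tissue was not measured.

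QuantSeq libraries take reads from the 3′ end of a transcript, so levels of different genes can be set side by side without dividing by length. Libraries held 13256467 to 20484578 reads, of which 57.4% to 64.6% were assigned to genes and 16.6% to 19.9% mapped to several places and were assigned to none. The assigned share was 57.4% to 58.6% in Wheel clodronate mice, 58.8% to 63.2% in Control clodronate, 58.5% to 63.9% in Wheel PBS and 60.5% to 64.6% in Control PBS mice. A gene at 1 CPM had at most 13 to 20 reads. Of the 79 members, 77 were above 1 CPM in all 22 mice, Rpl39l in 14 and Rpl3l in 11. The tissue was rich in adipocyte messages in every mouse, with Fabp4 (a fatty acid carrier) between 2576 and 8453 CPM.

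Levels of the members were far from equal. The highest mean over 22 mice was 851 CPM for Rps14, a protein of the small subunit, followed by Rplp1 (576 CPM), Rps26 (573 CPM), Rps20 (571 CPM) and Rps21 (518 CPM). Except for Rplp1, a protein of the stalk that recruits elongation factors, these are small subunit proteins. The means of Rplp1 (398 to 871 CPM over mice), Rps26 (344 to 848 CPM) and Rps20 (369.8 to 1164.5 CPM) were nearly equal. Their order within single mice was not compared. The 10 highest members held 32.7% of the signal of the set. The median member had 176 CPM, 54 members lay between 100 and 600 CPM and 13 lay below 50 CPM.

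At the low end, Rps6, the subunit protein that S6 kinases phosphorylate, had a mean of 12.0 CPM, 71.1-fold below Rps14. Rpl3l, a paralog of Rpl3 found in skeletal and heart muscle, and Rpl39l, a paralog of Rpl39 known from the testis, had the lowest means. In the annotation, the last 400 bases of Rps6 were 91.75% covered by near-identical sequence of 7 other genes, and reads that map to several places were not assigned. The end of Rplp1, one of the highest members, was covered to 100% by 2 other genes. Over the 78 members with an annotated end, the 26 with no match had a median of 147 CPM. The 30 with a partial match had 181 CPM and the 22 covered over 90% had 184 CPM. Whether reads lost to matching ends lowered the value of any member was not tested. Symbols marked as pseudogenes of this family (287 listed, 54 tested) took 2.83% to 5.00% of the combined signal of the set and these symbols in each mouse.

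**Figure D1:**
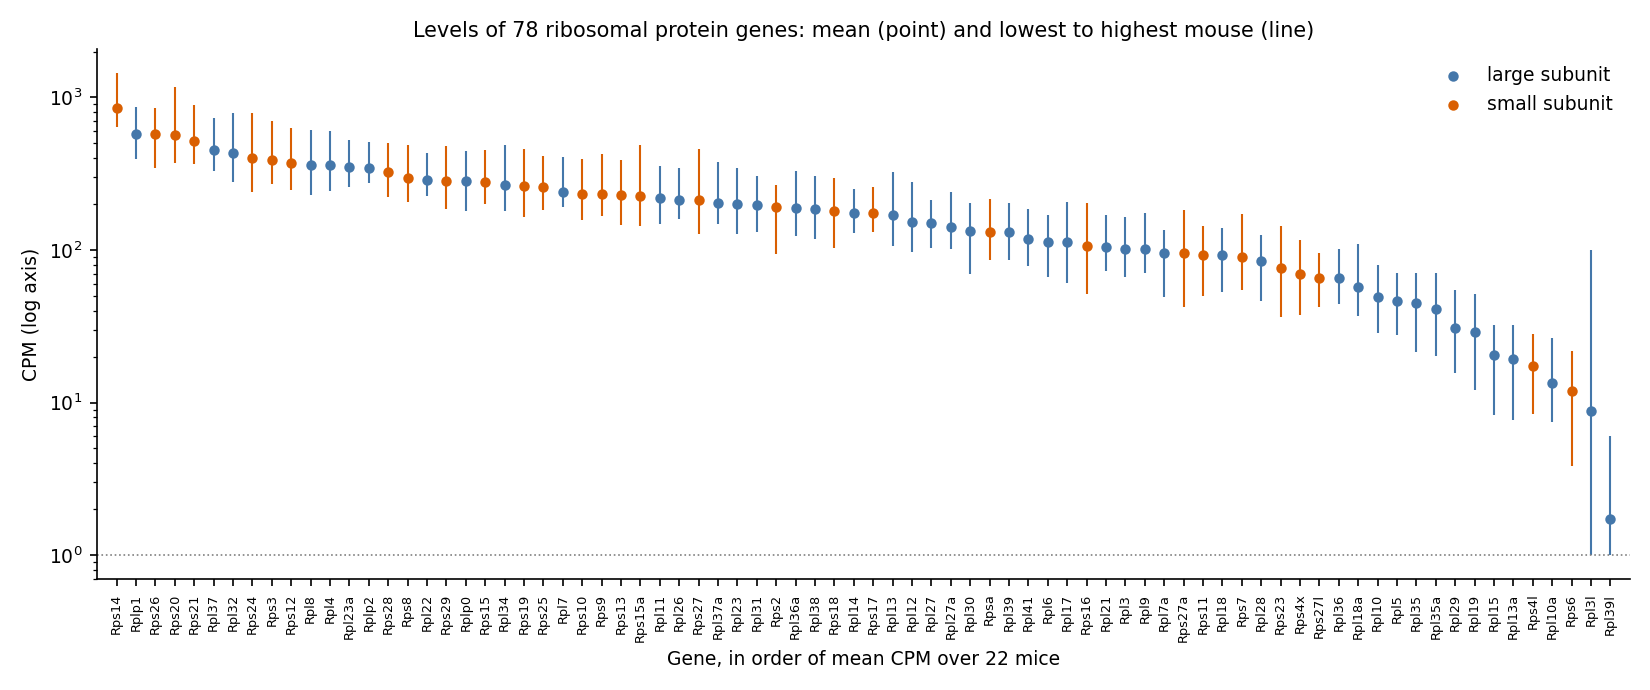
Mean CPM over 22 mice of 78 of the 79 genes (points) with the lowest and highest mouse (lines), on a log axis, in order of the mean and coloured by subunit; the dotted line is the lowest value the files hold. Means run from 851 CPM for Rps14 to 12.0 CPM for Rps6 among the genes seen in every mouse, and the line of Rpl3l reaches from 1 to 99.8 CPM.

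Together the 79 genes took 1.86% to 4.59% of the reads assigned to genes. With PBS liposomes, Control mice had shares of 2.70%, 2.99%, 2.27%, 2.81%, 2.24% and 2.55%, a mean of 2.59% ± 0.299 (SD, n = 6). Wheel mice with PBS liposomes had 1.87%, 2.28%, 2.97%, 2.62%, 2.51% and 1.86%, a mean of 2.35% ± 0.440 (SD, n = 6). The groups overlapped, and Wheel mice 1 and 6 had the lowest shares of the study. With clodronate liposomes, Control mice had 2.15%, 2.497%, 2.74%, 2.23% and 2.23%, a mean of 2.37% ± 0.246 (SD, n = 5). Wheel mice with clodronate liposomes had 2.42%, 2.39%, 4.59%, 4.20% and 3.45%, a mean of 3.41% ± 1.00 (SD, n = 5). Wheel clodronate mice 3, 4 and 5 stood above all others, while mice 1 and 2 of that group lay inside the range of its controls.

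The same 3 mice were high in lymphocyte markers. All 16 markers on the list, which covers B cells (Ms4a1, Cr2), T cells (Cd3e) and pan-leukocyte genes (Cd52, Coro1a), were tested. Their summed level was 33.3 to 519 CPM in Control PBS mice, 32.1 to 634 in Wheel PBS mice, 31.3 to 58.9 in Control clodronate mice and 37.0 to 1482 in Wheel clodronate mice. In 5 mice no marker was at 1 CPM, namely Control PBS mouse 2, Wheel PBS mouse 3 and Wheel clodronate mice 3, 4 and 5, with mean log2(CPM + 1) of 4.63, 4.90, 5.94, 6.08 and 5.39. In the other 17 mice that mean was 1.28 to 1.79, with 8 to 14 of the 16 markers at 1 CPM. Ms4a1, which encodes the B cell protein CD20, read 49.7, 59.8, 128, 146 and 90.6 CPM in the 5 mice and at most 1.98 CPM in the others. Control PBS mouse 2 and Wheel PBS mouse 3 also had the highest ribosomal share of their own groups. The part of lymphocytes in the ribosomal protein values was not tested, and each comparison is given below with and without these 5 mice, a choice made after seeing the data.

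**Figure D2:**
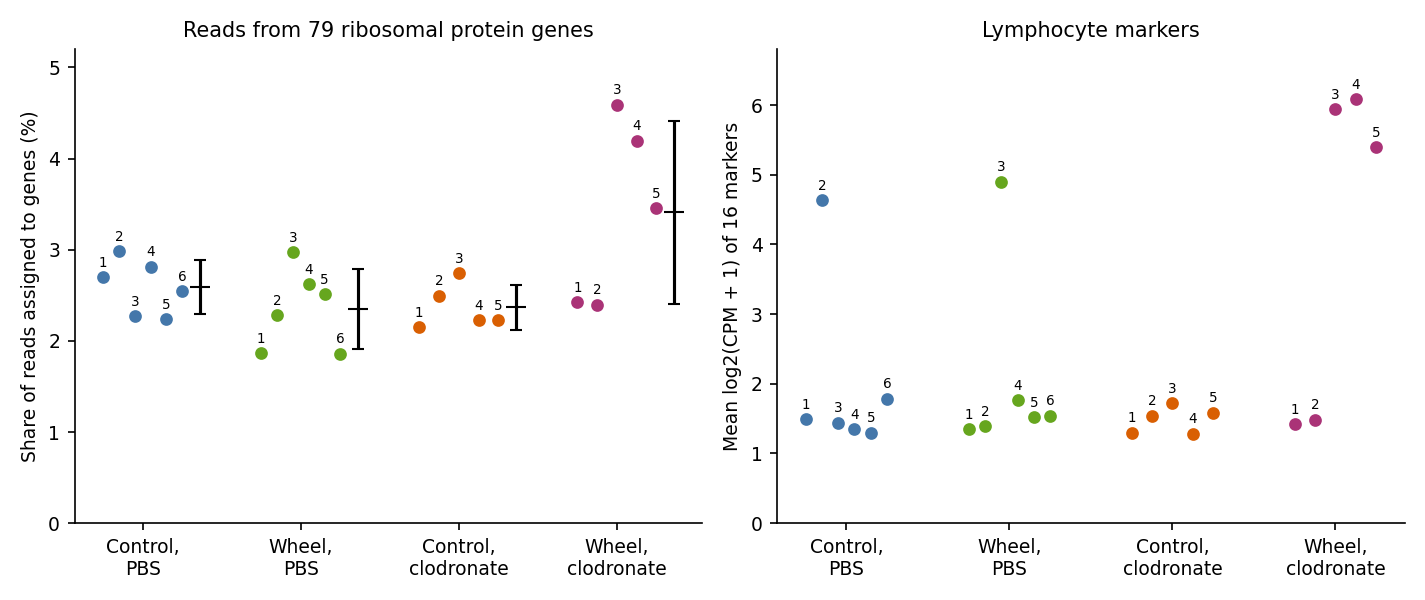
Left, share of reads assigned to genes that came from the 79 genes (%), and right, mean log2(CPM + 1) of 16 lymphocyte markers, for each mouse by group (points, numbered by replicate; black bars on the left are the group mean and SD). Wheel clodronate mice 3, 4 and 5 sit at 4.59%, 4.20% and 3.45% on the left and between 5.39 and 6.08 on the right.

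The high values in Wheel clodronate mice 3, 4 and 5 took in nearly the whole set. Wheel clodronate mouse 3 had the highest value of all 22 mice for 58 of the 79 members (73.4%), against 6.78% of all genes tested, and Wheel clodronate mouse 4 for 10 members (12.7%), against 6.17%. Members above their own median over the 22 mice numbered 76, 76 and 72 in Wheel clodronate mice 3, 4 and 5, and 74 in Control PBS mouse 2. Wheel PBS mouse 3, also high in lymphocyte markers, had 61. Control PBS mice 4 and 1, which were low in these markers, had 61 and 58. The same count over all genes was not made. At the other end, 3 members were above their median in Wheel PBS mouse 1, 3 in Wheel PBS mouse 6 and 7 in Control clodronate mouse 1. Wheel clodronate mice 1 and 2 had 25 and 22 members above the median. The summed signal of the large subunit divided by that of the small subunit was 0.879 in Wheel PBS mouse 3 and 0.875, 0.869 and 0.864 in Wheel clodronate mice 3, 4 and 5, and 0.918 to 1.00 in the other 18 mice, among them Control PBS mouse 2 at 0.922.

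**Figure D3:**
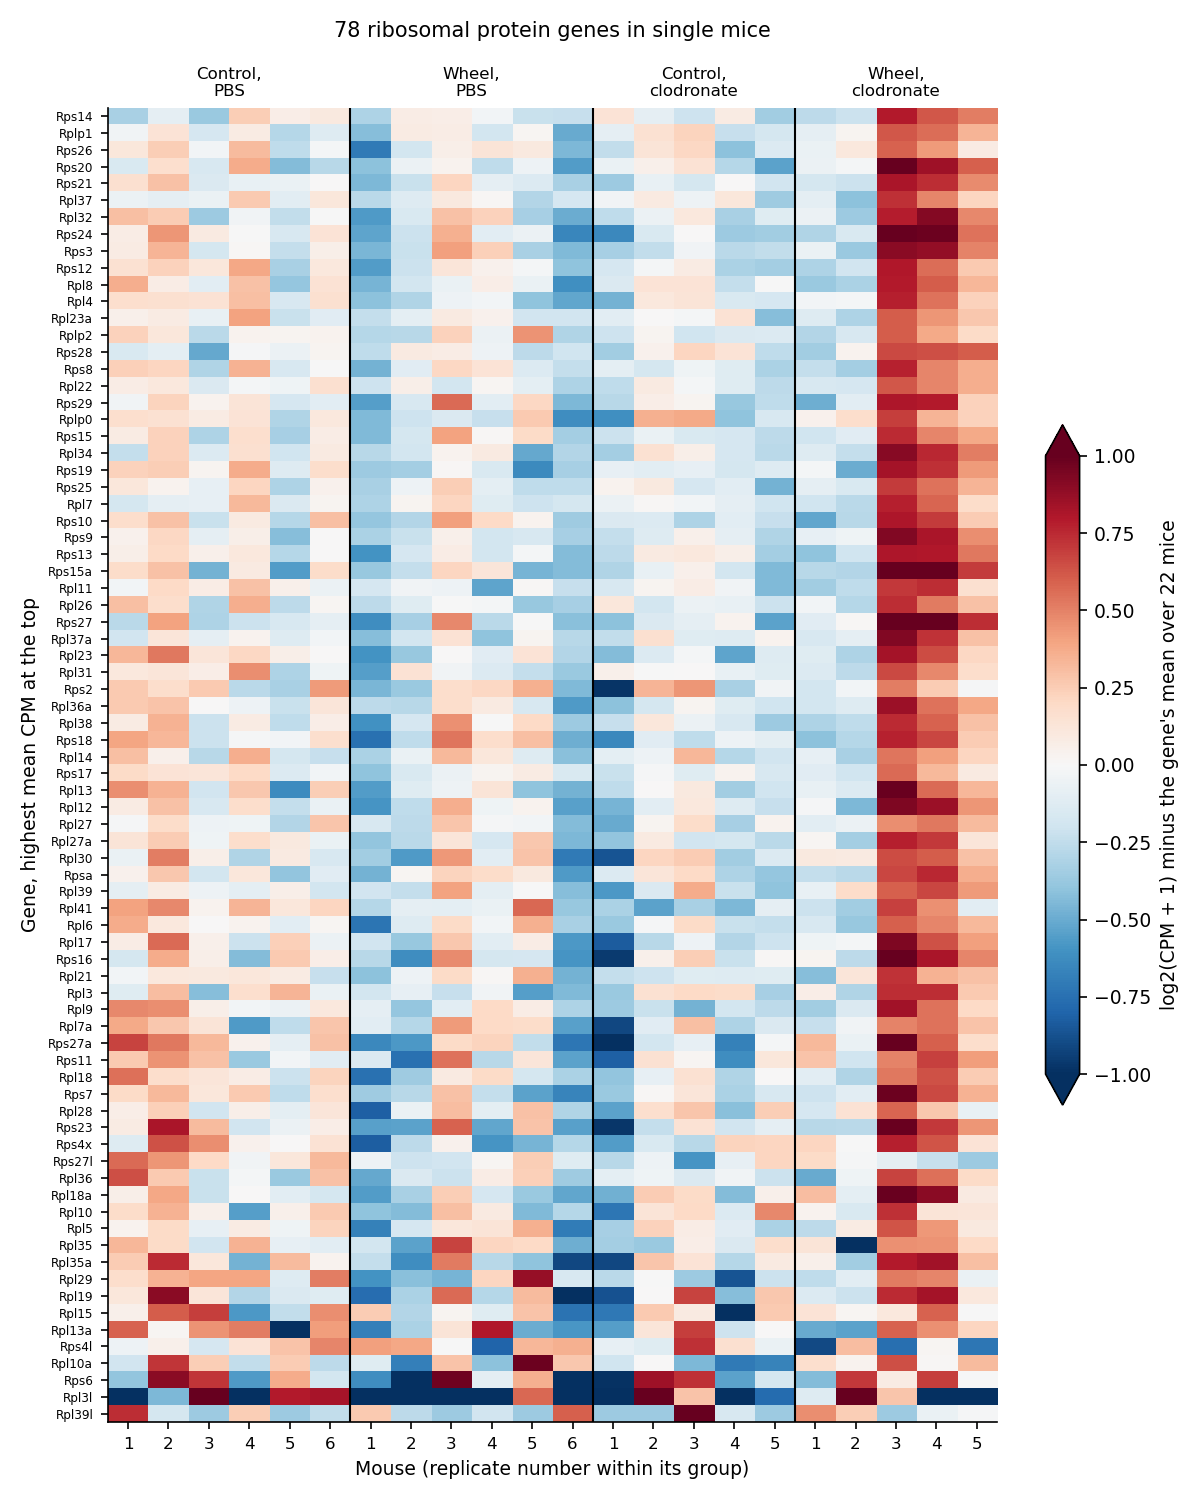
Values of 78 of the 79 genes (rows, highest mean at the top) in each of 22 mice (columns, by group and replicate), coloured by log2(CPM + 1) minus the mean of the gene over all mice. Wheel clodronate mice 3 and 4 are red for most genes, 76 of the full set of 79 being above their own median in each. Rps27l and Rps4l were below theirs in both.

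With PBS liposomes, the comparison of Wheel and Control mice asks what running did where phagocytes were left in place. No ribosomal protein gene changed by limma (adjusted p under 0.05 over 15138 genes), and no gene of all tested did (0%). At an unadjusted p under 0.05, 8 members were lower and 0 higher (10.1%), where 4.12% of all genes were lower and 0.799% higher. The difference was below 0 for 78 of 79 members with a median of -0.19 on the log2(CPM + 1) scale, beside -0.08 for all genes. Under upper-quartile scaling, which takes the shift of all genes to -0.0012, the median of the members was -0.10, 17 were above 0 and 4 were lower at an unadjusted p under 0.05. Of all 15138 genes, 274 were higher and 273 lower in that fit. Leaving out 1 mouse gave 4 to 12 such members, the lowest counts coming without Control mouse 2 (4) and Wheel mouse 6 (5). Without the 5 mice high in lymphocyte markers, the median of the members was -0.22, beside -0.08 for all genes, and 3 members were above 0. At an unadjusted p under 0.05, 10 members were then lower and 0 higher, where 506 of 15138 genes were lower and 120 higher.

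Rps4x, a small subunit protein encoded on the X chromosome (chrX:102184941-102189394, GRCm38), read 61.3 to 105 CPM (median 71.6) in Control and 37.3 to 69.0 CPM (median 51.5) in Wheel mice with PBS liposomes. The groups overlapped between 61.3 and 69.0 CPM, and the difference of -0.59 ± 0.18 (SE) had an adjusted p of 0.96 by limma. Rps27a, which is made as a fusion with ubiquitin, read 84.2 to 144 CPM (median 111) in Control and 54.0 to 105 CPM (median 67.8) in Wheel mice, a difference of -0.59 ± 0.21 (SE, limma adjusted p = 0.99). Rpl4, a large subunit protein whose loop lines the exit tunnel, differed by -0.41 ± 0.15 (SE, limma adjusted p = 0.99). The other members with an unadjusted p under 0.05 were Rps19, Rps7, Rpl23, Rpl18 and Rps27l, at -0.46 to -0.32. Rps28 was the one member above 0, at 0.03 ± 0.16 (SE), with 222 to 323 CPM in Control and 265 to 337 CPM in Wheel mice.

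With clodronate liposomes, the comparison of Wheel and Control mice asks the same where phagocytes had been targeted. Clodronate against PBS gave 12 macrophage markers a median of -0.52 in Control mice and -0.18 in Wheel mice, where 4 were above 0. In Wheel mice it was -0.70 without the 5 mice high in lymphocyte markers. With all mice, 2 (16.7%) were lower in Control and 0 in Wheel mice at an unadjusted p under 0.05. The shares of all genes lower were 6.08% and 5.54%, and no macrophage marker passed by limma. None of the 79 changed by limma, and 1 gene of all tested did (0.00661%), the predicted gene Gm7536, which is no member. At an unadjusted p under 0.05, 36 members were higher and 0 lower (45.6%), where 7.04% of all genes were higher and 3.4% lower. The difference was above 0 for 77 of 79 with a median of 0.38, beside 0.0045 for all genes, and the smallest adjusted p was 0.23, for the large subunit gene Rpl17. Without the 5 mice high in lymphocyte markers, which leaves 2 Wheel mice, the median was -0.0086, 37 members were above 0 and 0 had an unadjusted p under 0.05. Of all 15138 genes, 409 were higher and 552 lower in that fit. The counts also turned on single mice. Members at an unadjusted p under 0.05 numbered 10 without Wheel mouse 3, 14 without Wheel mouse 4, 20 and 23 without Control mice 1 and 4, and 57 and 59 without Wheel mice 1 and 2. A fit of these 2 groups alone gave 18, and scaling to assigned reads, of which Wheel clodronate mice had the lowest mean share (58.0%), gave 52. Of all 15138 genes, 1388 were higher and 332 lower in the scaled fit. Throughout, unadjusted counts from fits without 1 mouse, of 2 groups alone or with a replicate block stand without those of all genes. Whether all genes moved with the members in those fits is not shown. At the adjusted threshold, leaving out Wheel mouse 2, 4 members (Rps9, Rps3, Rpl17 and Rps27) passed among 236 genes, and leaving out Wheel mouse 1, Rps27 passed among 118.

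Rps27, a zinc-binding small subunit protein (chr3:90212522-90213651, GRCm38), read 149, 179, 186, 203 and 136 CPM in Control and 183, 199, 458, 428 and 332 CPM in Wheel mice with clodronate liposomes. Wheel mice 3, 4 and 5 were above every Control mouse, and mice 1 and 2 were not. The difference was 0.82 ± 0.23 (SE, limma adjusted p = 0.24), and 0.18 without the 5 mice. Control PBS mouse 2 and Wheel PBS mouse 3, at 262 and 277 CPM, had the highest Rps27 of the PBS mice.

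Rps27a (chr11:29545846-29548109, GRCm38) read 42.3, 78.8, 84.5, 55.7 and 88.6 CPM in Control and 112, 85.8, 182, 136 and 102 CPM in Wheel mice with clodronate liposomes. The groups overlapped only through Wheel mouse 2 and Control mouse 5. The difference was 0.82 ± 0.23 (SE, limma adjusted p = 0.24) with all mice and 0.54 (limma adjusted p = 0.86) without the 5. Its 3′ end was 91.75% covered by sequence of 7 other genes, so its reads are uncertain.

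Rps20, a small subunit protein with no matching end elsewhere, read 522, 567, 605, 448 and 376 CPM in Control and 525, 539.5, 1164.5, 985 and 828 CPM in Wheel mice with clodronate liposomes. Its difference was 0.63 ± 0.21 (SE, limma adjusted p = 0.27), and 0.10 without the 5 mice. Rps14 was highest in the same 3 mice, with 691, 715, 1439.5, 1278 and 1182 CPM in the Wheel mice.

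In Control mice, the comparison of clodronate with PBS liposomes again gave 0 members and 0 genes (0%) past the limma threshold. At an unadjusted p under 0.05, 7 members were lower and 0 higher (8.86%), where 6.08% of all genes were lower and 0.905% higher. The median member differed by -0.17, beside -0.10 for all genes, and 75 of 79 were below 0. Under upper-quartile scaling the median was -0.061, 24 members were above 0 and 4 were lower at an unadjusted p under 0.05. Of all genes, 303 were higher and 386 lower in that fit. Without the 5 mice high in lymphocyte markers, the median of the members was -0.13, beside -0.11 for all genes, and 8 were above 0. At an unadjusted p under 0.05, 8 members were then lower and 0 higher, where 898 of 15138 genes were lower and 113 higher.

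Rps27a was 84.2 to 144 CPM in the 6 Control mice with PBS liposomes and 42.3 to 88.6 CPM in the 5 with clodronate, a difference of -0.70 ± 0.22 (SE, limma adjusted p = 0.50). Rpl29, a basic large subunit protein, was 26.6 to 42.2 CPM with PBS and 24.1, 29.1, 22.5, 15.6 and 25.0 CPM with clodronate. That difference was -0.63 ± 0.23 (SE, limma adjusted p = 0.57), and the end of Rpl29 was 99.5% covered by 20 other genes. Rpl41, the shortest of the ribosomal proteins, differed by -0.61 (limma adjusted p = 0.44), the smallest adjusted p among the members.

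In Wheel mice, clodronate against PBS liposomes gave 0 members past the threshold by limma, and 1 gene of all tested (0.00661%), again Gm7536. At an unadjusted p under 0.05, 44 members were higher and 0 lower (55.7%), where 6.08% of all genes were higher and 5.54% lower. The median member differed by 0.41, beside 0.0002 for all genes, and 77 of 79 were above 0. Leaving out the 5 mice kept only mice 1 and 2 of the Wheel clodronate group. The median was then 0.052, 48 members were above 0 and 2 were higher at an unadjusted p under 0.05, where 461 of 15138 genes were higher and 880 lower. In that fit 10 skeletal muscle markers had a median of 4.71, beside 1.84 with all mice. Without Wheel clodronate mouse 3 or mouse 4 alone, 20 and 25 members had an unadjusted p under 0.05. Leaving out Wheel clodronate mouse 2 alone brought Rps19, a small subunit protein mutated in Diamond-Blackfan anemia, past the threshold. Over the 11 fits of this comparison that left out 1 mouse, 0 to 51 genes of all tested passed. This comparison shares its Wheel clodronate mice with the one between Wheel and Control mice above, so the values for the members are not separate evidence.

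Rps4x read 78.0, 66.9, 116, 104 and 73.7 CPM in Wheel mice with clodronate, and the highest Wheel mouse with PBS, mouse 3, had 69.0 CPM. Its difference was 0.75 ± 0.19 (SE, limma adjusted p = 0.17), and 0.59 (limma adjusted p = 0.44) without the 5 mice, so it stood above 0 with and without them. Rps27 differed by 0.78 ± 0.22 (SE, limma adjusted p = 0.20), and by 0.28 without the 5. Rpl4 differed by 0.59 ± 0.15 (SE, limma adjusted p = 0.17), and by 0.31 without them.

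**Figure D4:**
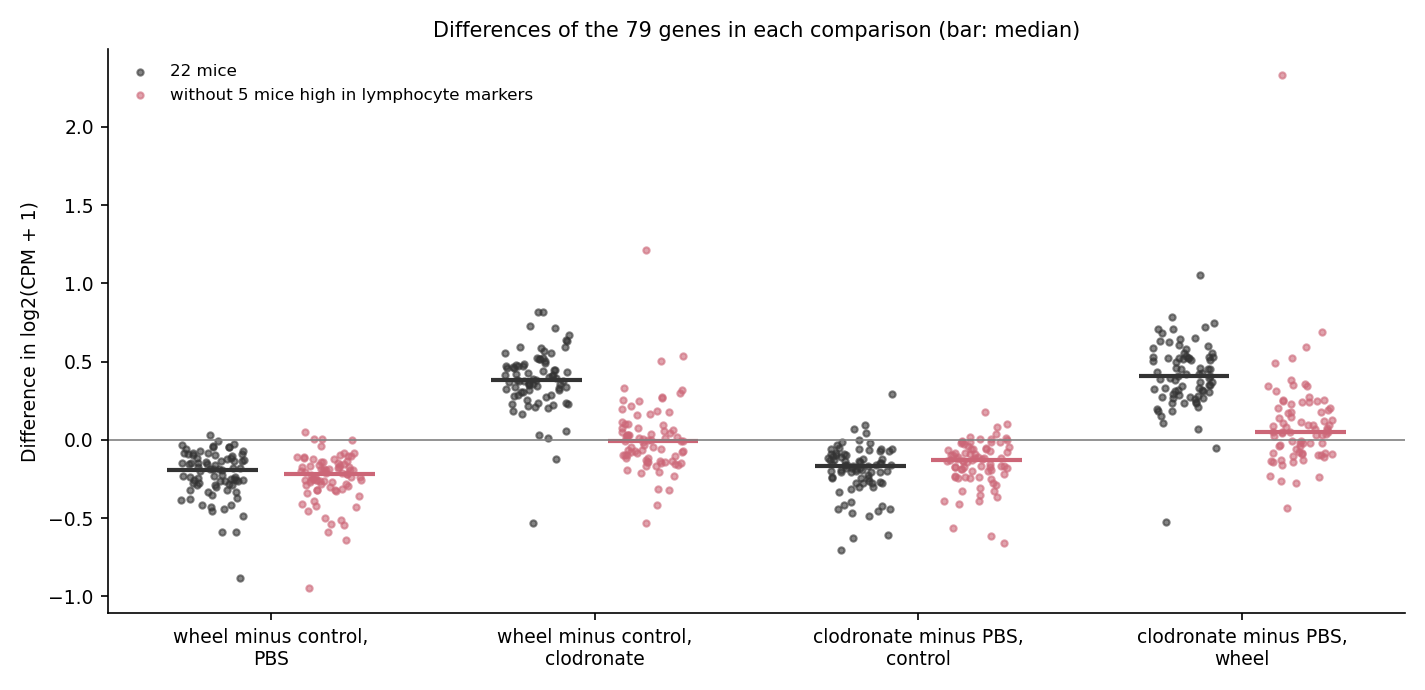
Difference in log2(CPM + 1) of each of the 79 genes (points) in the 4 comparisons of 2 groups, with all 22 mice (black) and without the 5 mice high in lymphocyte markers (red); bars are medians. The medians in the comparisons that hold Wheel clodronate mice go from 0.38 to -0.0086 and from 0.41 to 0.052.

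Across both liposome types, the mean effect of the wheel on the members had a median of 0.10, beside -0.04 for all genes. By limma 0 members and 0 genes (0%) passed, and 2 members, Rps27 and Rpl39, had an unadjusted p under 0.05, both higher, where 3.93% of all genes were higher and 4.16% lower. Leaving out the 5 mice gave a median of -0.13, and without Wheel clodronate mouse 3 alone 0.039. The mean effect of clodronate over both activities had a median of 0.11, and 0 members were among the 31 genes that passed (0.205%). Here 7 members were higher at an unadjusted p under 0.05 and Rps27l was lower, where 2.13% of all genes were higher and 8.3% lower. The median without the 5 mice was -0.059, and without Wheel clodronate mouse 3 alone 0.064. The interaction, the effect of the wheel with clodronate minus that with PBS liposomes, had a median of 0.62, beside 0.09 for all genes. By limma 0 members and 0 genes passed (0%), and 44 members were higher at an unadjusted p under 0.05, where 6.35% of all genes were higher and 1.23% lower. Its smallest adjusted p was 0.46, for Rps27a at 1.41 ± 0.32 (SE). Without the 5 mice the median was 0.21 and Rps27a stood at 1.18. At an unadjusted p under 0.05, 5 members were then higher, where 393 of 15138 genes were higher and 242 lower. Without Wheel clodronate mouse 3 alone, 29 members had an unadjusted p under 0.05.

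The stalk proteins bind the translation factors during each cycle of elongation. Rplp0, the scaffold of the stalk, read 179, 352, 358, 209 and 246 CPM in Control and 283, 310.1, 444, 349 and 323 CPM in Wheel mice with clodronate liposomes. In the same mice Rplp2 read 293, 344, 294, 306 and 306 CPM in Control and 275, 302, 514, 439 and 386 CPM in Wheel mice. Differences in that comparison were 0.38 ± 0.19 for Rplp0, 0.32 ± 0.16 for Rplp1 and 0.28 ± 0.17 for Rplp2 (SE, limma adjusted p = 0.48, 0.52 and 0.62). Rpsa, a small subunit protein also known as the laminin receptor, read 108, 106, 204, 216 and 164 CPM in those Wheel mice, against 97.6 to 147 CPM in their controls. In all 4 genes the 3 mice high in lymphocyte markers had the highest values of the Wheel clodronate group.

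Rpl5 and Rpl11, which form a complex with 5S ribosomal RNA that can bind Mdm2, were at different levels, with Rpl11 at a mean of 218 CPM. Rpl5 ranged over 27.6 to 70.8 CPM in all mice. In the comparison of Wheel and Control mice with clodronate they differed by 0.29 ± 0.20 and 0.31 ± 0.18 (SE, limma adjusted p = 0.68 and 0.61). Rps6 followed the rest of the set only in part. In Wheel clodronate mice it read 7.65, 18.1, 11.4, 17.9 and 10.7 CPM, with mouse 2 the highest. In their controls it read 4.88, 20.1, 18.4, 7.05 and 9.35 CPM, highest in mice 2 and 3, which also had the highest ribosomal shares of that group. The difference was 0.23 ± 0.43 (SE, limma adjusted p = 0.90). Its highest value of the study, 21.9 CPM, came from Wheel PBS mouse 3, one of the mice high in lymphocyte markers.

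After subtracting the mean of all members in each mouse, the SD over mice was smallest for Rpl36a (0.11), Rpl27 (0.12) and Rps21 (0.12) and largest for Rpl3l (1.54), Rps4l (0.60) and Rps6 (0.58) on the log2 scale. Rpl36a kept closest to the mean of the set, with 161, 167, 331, 266 and 239 CPM in Wheel clodronate mice.

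Some paralogs were high in other mice than their partners. Rps27l, a paralog of Rps27 induced by p53, read 73.4, 63.8, 60.4, 54.6 and 49.6 CPM in Wheel clodronate mice, so that mice 3, 4 and 5, highest for Rps27, were lowest for Rps27l. Across the groups it ranged over 62.7 to 95.5 CPM in Control PBS, 55.6 to 76.3 CPM in Wheel PBS and 42.3 to 74.6 CPM in Control clodronate mice. Clodronate against PBS in Control mice gave -0.43 ± 0.14 (SE, limma adjusted p = 0.53) for Rps27l and -0.12 ± 0.22 (SE, limma adjusted p = 0.93) for Rps27. The 3′ end of Rps27l matched no other gene, while that of Rps27 was 98.8% covered by 2 others.

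Rps4l is annotated as a transcribed processed pseudogene related to Rps4x. It read 8.47, 21.0, 9.48, 16.9 and 9.75 CPM in Wheel clodronate and 15.7, 15.2, 28.3, 18.8 and 15.9 CPM in Control clodronate mice. It had the lowest difference of the members in that comparison, -0.53 ± 0.27 (SE, limma adjusted p = 0.50), and -0.42 without the 5 mice. Against Wheel PBS mice it differed by -0.52 ± 0.25 (SE, limma adjusted p = 0.43).

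Rpl3l (chr17:24727820-24736143, GRCm38) was at 1 CPM in 11 mice and reached 99.8 CPM in Control clodronate mouse 2, 41.6 in Wheel clodronate mouse 2 and 11.7 in Control PBS mouse 3. These 3 mice had mean log2(CPM + 1) of 10.8, 9.88 and 7.89 for the 10 skeletal muscle markers, the highest of all mice, and the range over the study was 1.62 to 10.8. The skeletal actin gene Acta1 read 6082, 3330 and 836 CPM in them. Its differences between groups ran from -0.88 ± 0.82 to 1.05 ± 0.86 (SE, limma adjusted p = 0.99 and 0.69), and clodronate against PBS in Wheel mice went from 1.05 to 2.33 without the 5 mice. Rpl3 itself read 79.4 CPM in Wheel clodronate mouse 2 and 109 CPM in Control clodronate mouse 2, inside the range of all mice (66.6 to 164 CPM).

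Rpl39l reached 6.00 CPM in Control clodronate mouse 3 and lay at or below 3.28 CPM in every other mouse, while Rpl39, a small protein of the exit tunnel, read 85.5 to 204 CPM. Rpl10, on which the last step of large subunit maturation depends, read 28.4 to 79.6 CPM, while its paralog Rpl10l was at 1 CPM throughout. Rpl22 read 227 to 435 CPM and its paralog Rpl22l1, which the symbol pattern does not take in, 19.9 to 60.9 CPM. In Wheel clodronate mice 3, 4 and 5 Rpl22 read 435, 396 and 363 CPM and Rpl22l1 54.3, 49.99 and 45.8 CPM.

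**Figure D5:**
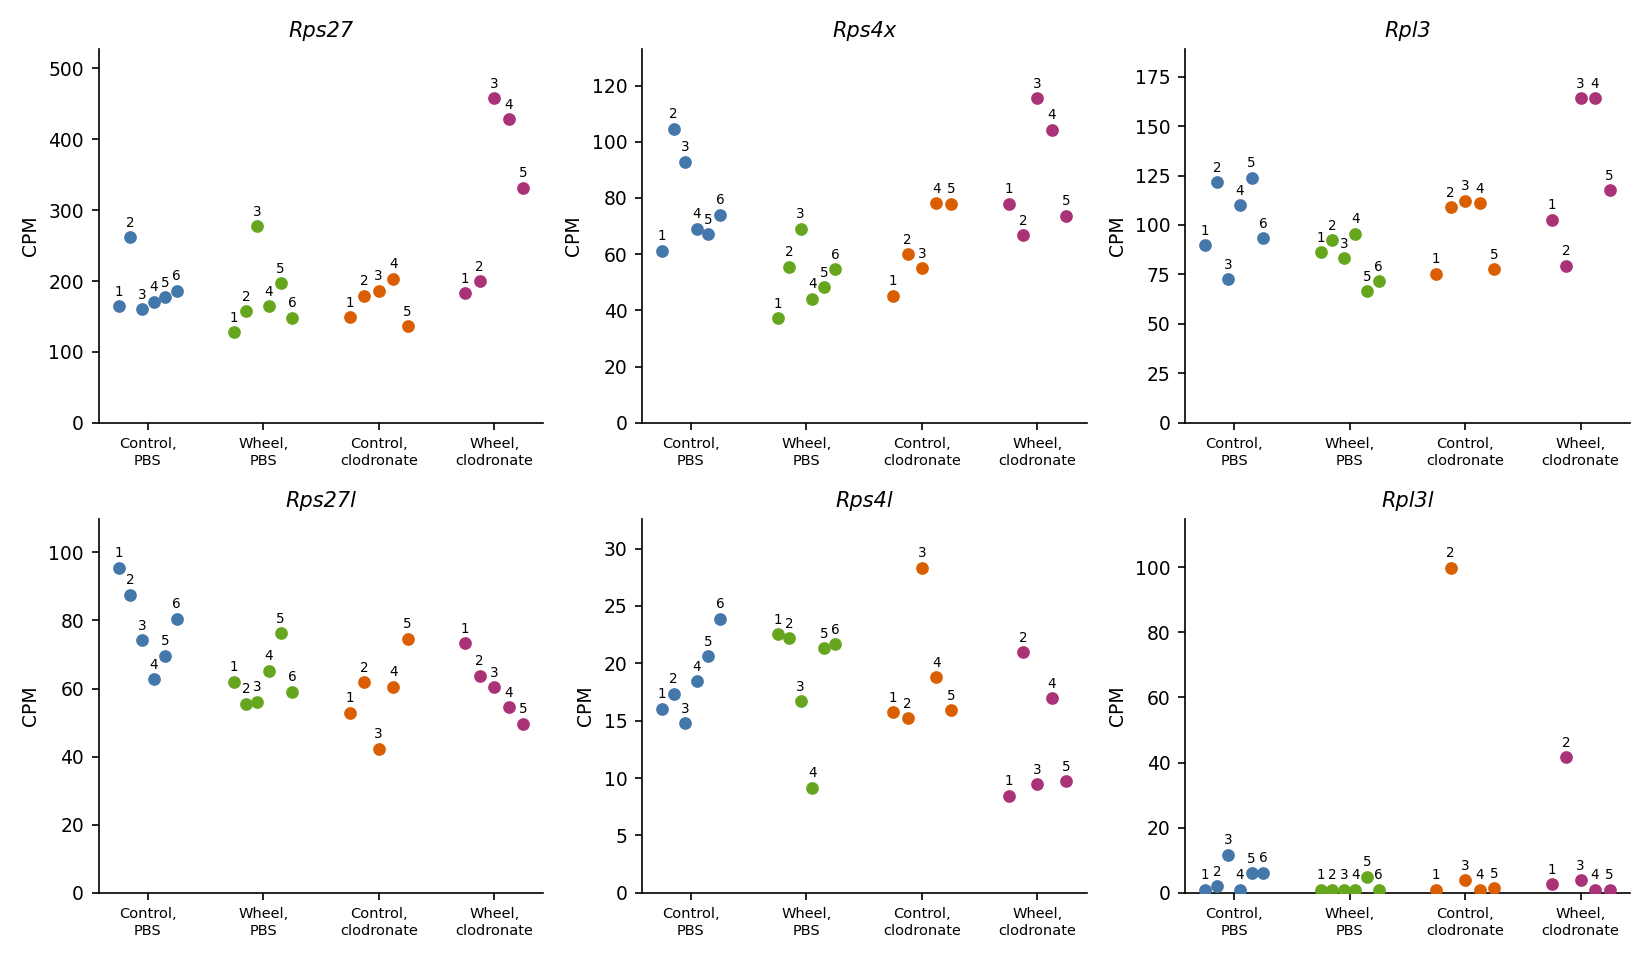
CPM of 3 ribosomal protein genes (top) and their paralogs (bottom) in each mouse by group (points, numbered by replicate). In Wheel clodronate mice 3, 4 and 5 Rps27 is at 458, 428 and 332 CPM and Rps27l at 60.4, 54.6 and 49.6 CPM, and Rpl3l is high in Control clodronate mouse 2 (99.8 CPM) and Wheel clodronate mouse 2 (41.6 CPM).

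Of 13 further symbols listed as ribosomal proteins outside the pattern, 8 were tested and 0 passed by limma in any comparison. Fau, which encodes the small subunit protein eS30 fused to a ubiquitin-like domain, read 119, 116, 269, 245 and 204 CPM in Wheel clodronate and 95.9 to 132 CPM in Control clodronate mice, a difference of 0.63 ± 0.21 (SE, limma adjusted p = 0.27). Rps3a1, another small subunit protein, differed by 0.45 ± 0.20 (SE, limma adjusted p = 0.43) in the same comparison. The list had 4 of 8 members higher at an unadjusted p under 0.05 there, where 7.04% of all genes were higher, and a median of 0.36, beside 0.38 for the 79. Without the 5 mice high in lymphocyte markers 0 of the 8 had such a p, the median was 0.023 and Fau differed by 0.020 ± 0.20 (SE, limma adjusted p = 1).

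Other genes of the translation machinery were read by role. Among 17 tested translation genes whose messages also carry 5′ pyrimidine tracts, 17 were above 0 in clodronate against PBS Wheel mice with a median of 0.27, and 5 (29.4%) were higher at an unadjusted p under 0.05, where 6.08% of all genes were higher. Without the 5 mice high in lymphocyte markers 9 were above 0, 0 had such a p and the median was 0.0022. Eef2, the factor that moves the ribosome along, differed by 0.34 ± 0.13 there and Rack1, a scaffold on the small subunit, by 0.43 ± 0.18 (SE, limma adjusted p = 0.30 and 0.34), and without the 5 mice by 0.11 and 0.052. Of 26 initiation factors, 9 were above 0 with a median of -0.04, and 3 (11.5%) were higher and 1 (3.85%) lower at an unadjusted p under 0.05, where 6.08% of all genes were higher and 5.54% lower. The lower one was Eif4g1, the scaffold of the cap-binding complex, at -0.42 ± 0.11 (SE, limma adjusted p = 0.17), and at -0.55 without the 5 mice.

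Of 54 ribosome biogenesis genes, 38 were above 0 in that comparison with a median of 0.14, and 0 were higher and 1 (1.85%) lower at an unadjusted p under 0.05, fewer than the 6.08% and 5.54% of all genes. Their median was -0.18, with 16 above 0, when the 5 mice high in lymphocyte markers were left out. Npm1 and Ncl, abundant nucleolar proteins, differed by 0.31 ± 0.29 and 0.11 ± 0.20 (SE, limma adjusted p = 0.75 and 0.88). Among 17 genes of mTOR and Myc control, 10 were above 0 with a median of 0.05, and 1 was higher and 1 lower (5.88% each) at an unadjusted p under 0.05, close to the same shares of all genes. The lower one was Eif4ebp1, the translation repressor that mTOR phosphorylates, at -0.65 ± 0.21 (SE, limma adjusted p = 0.23), and at -0.27 without the 5 mice. With PBS liposomes, Wheel against Control mice gave medians of -0.23 for initiation factors, -0.25 for biogenesis genes and -0.16 for the pyrimidine-tract translation genes. The ribosomal proteins had -0.19 and all genes -0.08. At an unadjusted p under 0.05, 23.1%, 11.1% and 5.88% of these 3 lists were lower, beside 10.1% of the ribosomal proteins and 4.12% of all genes. The lean below 0 was thus not particular to the ribosomal proteins. No gene of these lists passed the limma threshold in any of the 4 comparisons of 2 groups.

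Other cell types were unevenly present too. In Wheel clodronate mice 3, 4 and 5 the mean log2(CPM + 1) of 10 adipocyte markers was 9.16, 9.20 and 9.37, against 9.79 and 9.56 in mice 1 and 2, and over all mice the lowest was 9.03. The score of 12 macrophage markers was 5.13, 4.95 and 5.04 in mice 3, 4 and 5 and 3.64 and 3.87 in mice 1 and 2. The score of 10 proliferation markers was 4.00, 3.04 and 3.65 in mice 3, 4 and 5 and 2.56 and 2.10 in mice 1 and 2. Its highest value of the study, 4.67, came from Control PBS mouse 1, whose ribosomal share was 2.70%. The lowest, 1.34, came from Control PBS mouse 5, with a share of 2.24%. Wheel PBS mice 1 and 6, with the lowest shares of the study (1.87% and 1.86%), scored 1.65 and 1.86. With PBS liposomes, Wheel against Control mice gave these 10 markers a median of -0.97, all below 0, and none passed by limma. The part of these cell types in the ribosomal protein values was not tested.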

How the data were processed

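RNA of 22 mice was measured with QuantSeq 3′ FWD libraries. The authors mapped the reads (the submitters' processing notes name STAR 2.5.3a and GRCm38) and deposited a signal per gene in CPM, in which any value under 1 had been set to 1. The counting tool is not given in the sources used here. All values between that floor and 1000 CPM (100%) lay within 0.05 of a whole number of reads, which gave depths of 13256467 to 20484578 reads. Reads of genes at the floor are lost, so count tests were not used, although the plan had assumed CPM without a floor. Left out were 4 rows that name no gene (ambiguous, multimapping, outside genes, unmapped). Of the 106 symbols with several rows, the most abundant row was used.

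Groups came from the sample labels. The 15138 genes above 1 CPM in at least 5 mice were fitted together with limma 3.58.1 in R 4.3.3 on log2(CPM + 1), with 4 group means, a variance trend and Benjamini-Hochberg adjustment at 0.05. The pseudocount understates changes of low genes. The members and lists were chosen with earlier results of these data known, and values over the 79 genes have no p. Genes were named by a rule on level, largest differences, variability and role. A gene that the rule names is not reported here. Rpl4, Rpl15, Rpl17, Rpl41, Rps19 and the other members listed for an unadjusted p or a call were added after their values were seen.

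Data were simulated for the comparison of Wheel and Control mice with PBS liposomes. Where 200 of the 15138 genes differed by 1.5 (log2), limma recovered 97% with 9 false calls. Where none differed, limma made 0 calls. Recovery of differences as small as the medians of the members was not tested. Ends of 400 bases in GENCODE M21 were matched with blastn 2.17.0 at 97% identity over at least 100 bases. Other steps used Python 3.11.15 with pandas 2.3.3, numpy 2.4.6 and matplotlib 3.10.9. Alternatives were other pseudocounts, filters, scalings, variance models, samples in the fit, the replicate number as a block, other member sets and leaving out each mouse. Leaving out 5 mice high in lymphocyte markers was added after seeing the data.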

Additional observations from a re-analysis of the deposited data

Results flagged for a closer look

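Single mice far from the others of their group were looked for in 31 measures over the 4 groups, 124 tests in all, by Dixon's criterion. It marked 10 values, where chance alone marks about 1 in 20, or 6.2, of normally spread values. That number is only a rough guide here. Some genes were named for their large spread in these mice, Rpl3l and Rpl39l lie at the floor in many mice, and many members vary together. Members of the set with a high mouse were Rpl3l in Wheel PBS mouse 5 (2.58 on the log2(CPM + 1) scale, with the other 5 mice of the group at 1.00) and in Control clodronate mouse 2 (6.66, next 2.29), Rpl39l in Control clodronate mouse 3 (2.81), Rps27 in Control PBS mouse 2 (8.04, next 7.55) and Rplp2 in Control clodronate mouse 2 (8.43, next 8.26). Control PBS mouse 2 is among the 5 mice high in lymphocyte markers, and Control clodronate mouse 2 had the highest muscle marker score. Members with a low mouse were Rps28 in Control PBS mouse 3 (7.80, next 8.17), Rps4l in Wheel PBS mouse 4 (3.35, next 4.14), Rplp0 in Control PBS mouse 5 (7.81, next 8.20) and Rpl10 in Control PBS mouse 4 (5.05, next 5.65). The share of pseudogene symbols in the combined signal was low in Control PBS mouse 6 (3.21%, next 3.76%). Causes were not tested.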

How the results depend on the processing

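The count of members past the limma threshold was 0 in all 7 comparisons under other pseudocounts, filters, scalings, variance models and the replicate block, and in the 4 comparisons of 2 groups when those groups were fitted alone. The medians kept their sign under these. Upper-quartile scaling took the median from -0.19 to -0.095 for the wheel with PBS, from -0.17 to -0.061 for clodronate in Control mice and from 0.11 to 0.17 for the mean effect of clodronate, and scaling to assigned reads took it from 0.10 to 0.15 for the mean effect of the wheel. Leaving out each mouse gave 0 to 4 members with clodronate, Wheel against Control (median 0.27 to 0.51), where 0 to 236 of all genes passed. In Wheel mice, clodronate against PBS, it gave 0 to 1 (median 0.28 to 0.51), where 0 to 51 of all genes passed. The other comparisons kept 0, with medians of -0.27 to -0.14 for the wheel with PBS and 0.50 to 0.70 for the interaction. Leaving out the 5 mice high in lymphocyte markers was added after seeing the data. The log2 ratio of mean shares went from 0.53 to 0.025 for Wheel to Control with clodronate and from 0.54 to 0.11 for clodronate to PBS in Wheel mice. The medians of the same comparisons went to -0.0086, below 0, and 0.052, and that of the interaction to 0.21. The mean effects changed sign, from 0.10 to -0.13 for the wheel and from 0.11 to -0.059 for clodronate. Upper-quartile scaling changed the split of all genes at an unadjusted p under 0.05 with PBS, Wheel against Control, from 121 higher and 623 lower to 274 and 273.

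Same-numbered mice did not deviate together throughout: with PBS liposomes the 6 pairs of Wheel and Control mice had a mean correlation of -0.08 (-0.25 to 0.11), and with clodronate the 5 pairs 0.18 (-0.12 to 0.52). With the replicate number as a block, 0 members passed in any comparison and 40 in place of 36 had an unadjusted p under 0.05 with clodronate, Wheel against Control. The fit without a filter was limited to genes above the floor in at least 1 mouse. Depth limits what can be said of Rpl39l and Rpl3l, which lie at the floor in many mice.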
